A study of Arabidopsis thaliana with 4 samples.

Results

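The PD probes are the smallest multi-plate series of the array on which trimethylation of histone H3 at lysine 27 (H3K27me3) was mapped in Arabidopsis thaliana. Members were chosen by their name alone, the letters PD followed by a plate number, a plate row from A to H and a well. There are 316 of them among 21740 plate-and-well probes with a value, and every listed PD probe carries one. The sources used here do not give the meaning of PD, the sequences of the probes or their places in the genome, so no gene, position or sequence is named. The series fills plates PD 01 and PD 02 (96 probes each), 95 wells of plate PD 03 and 29 of plate PD 04. Well PD03C05 is the only empty well inside the series, and the 67 wells after PD04C05 hold no feature.

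H3K27me3 is written by Polycomb repressive complex 2, whose catalytic subunits in Arabidopsis are CURLY LEAF, SWINGER and MEDEA. The mark covers genes that are held silent in a given tissue or stage, such as floral regulators in seedlings. In plants it tends to cover whole transcription units as a block, rather than a narrow peak at the start of the gene.

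All arrays form a single group of untreated wild-type seedlings of the Columbia accession (col-0), 10 days old and grown in liquid medium. Each of 2 immunoprecipitations, called replicates I and II, was compared with its own input DNA on 2 arrays with exchanged dyes, 4 arrays in all. Whole seedlings were used, so a probe marked in some cells and a probe marked weakly in all cannot be told apart. The antibody was a commercial one, and the DNA was amplified before it was labelled directly. No mutant or other tissue is among the samples used here, and nothing says that the replicates came from separate cultures, so their spread may be technical.

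The deposited score gives 1 value per probe and dye exchange, identical on both of its arrays, so n = 2 for every probe. It behaves as a log ratio of immunoprecipitate to input, but its log base and direction are not stated. The direction used here, high for marked, is likely from the long tail on the high side only. With the sign turned, each statement on high probes would be one on low probes. A unit is 1 step of the deposited scale, counted from the array median, which stood at -0.94 and -1.20 as deposited. Where 2 values of a probe or group follow each other, replicate I comes first. Probes that reached 1 unit or more in each of the replicates are called upper. Array probes carry no counts, so precision rests on the 2 replicates.

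The PD series was rich in upper probes. In all, 95 of 316 PD probes (30.1%) were upper, against a background of 16.2% over the whole array and 17.1% of the 18928 TA and TB probes. In limma's test over all 21740 probes, 134 PD probes (42.4%) lay above the array median at an adjusted p under 0.05, against a background of 27.1%. All 95 upper probes were among these 134, and the other 39 had means from 0.57 to 1.51 units. Only 3 PD probes (0.949%) were called below the median, against 4.81% of the array, and none lay 1 unit below it in both replicates, against 0.046%. The number called below was not stable, ranging from 0 to 167 over the settings tried.

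The median PD probe stood at 0.36 units in both replicates, whereas the median TA or TB probe stood at 0.05 and 0.03. PD values ran from -1.15 to 4.10 units in replicate I and from -0.88 to 3.69 in replicate II. By mean of the replicates, 116 PD probes (36.7%) were below the array median, against 48.9% of TA and TB probes. Means of 0 to 0.5 units made up 17.1%, against 18.8%. The shares were close in the next classes, at 11.4% against 10.9% from 0.5 to 1 unit, 7.91% against 6.85% from 1 to 1.5 units and 5.06% against 5.88% from 1.5 to 2 units. Means of 2 to 2.5 units were found for 29 PD probes (9.18%, against 4.5%), means of 2.5 to 3 units for another 29 (9.18%, against 3.0%) and means of 3 units or more for 11 (3.48%, against 1.25%). Beside the TA and TB plates, the surplus of PD probes thus lay mainly at 2 units and above.

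The upper PD probes averaged 2.65 and 2.04 units, and those of the TA and TB plates 2.40 and 1.78. Replicate I was the higher of the pair for 94 of the 95, and for 3158 of the 3234 upper TA and TB probes. The 118 PD probes past 1 unit in replicate I and the 98 past it in replicate II shared the 95, leaving 23 past it in replicate I only and 3 in replicate II only. Over the whole array, 5183 probes passed 1 unit in replicate I, 3724 in replicate II and 3524 in both. Over the 316 PD probes the replicates correlated at r = 0.952 (Pearson) and 0.889 (Spearman). These probes share arrays and neighbourhoods, so no p is given.

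**Figure D1:**
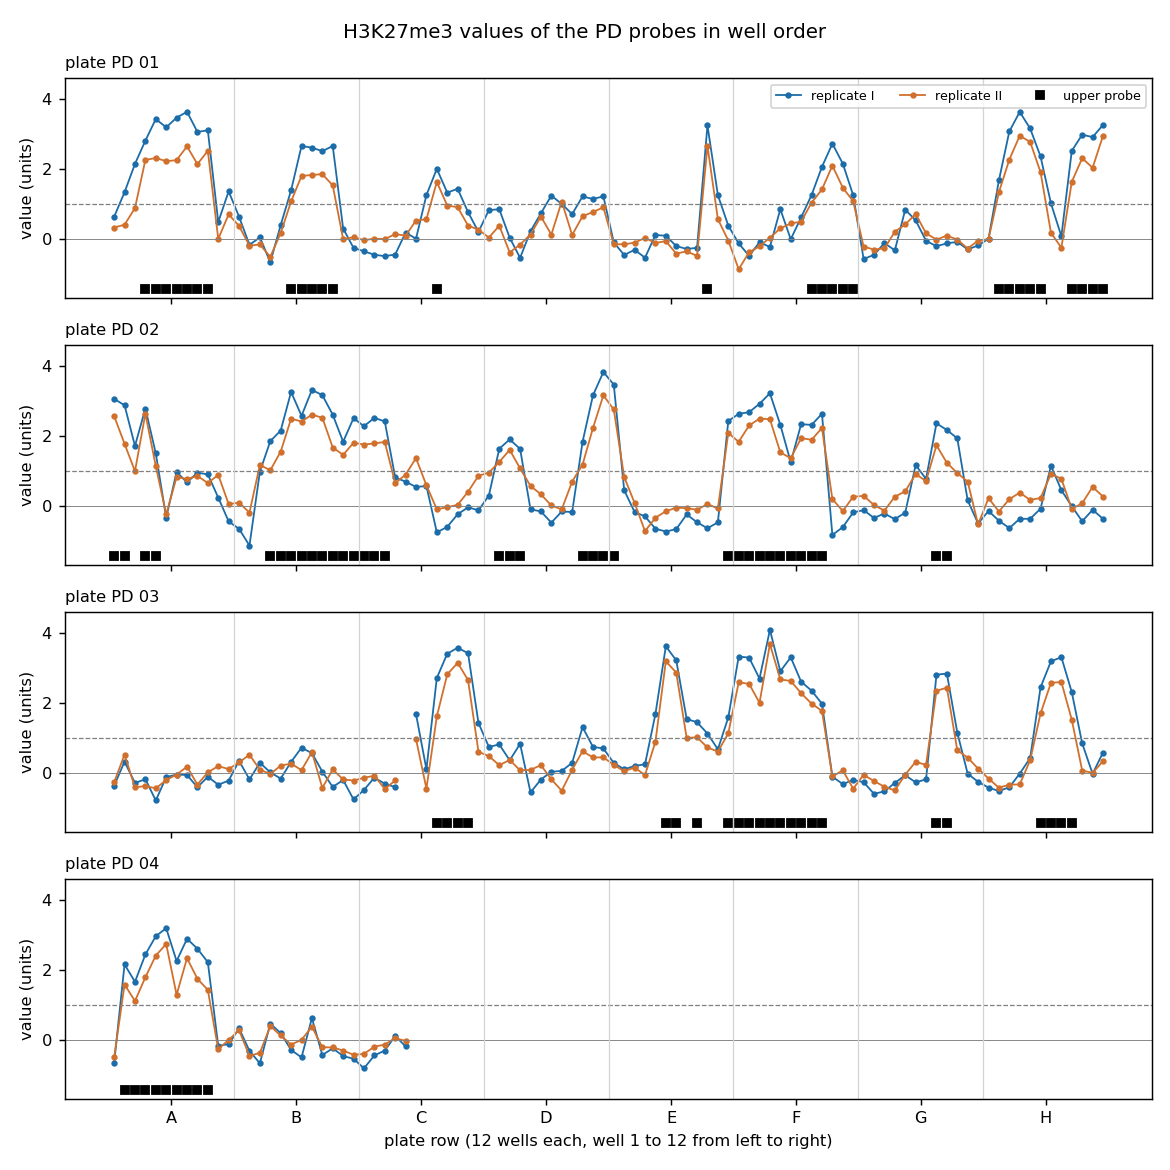
H3K27me3 values of the 316 PD probes in well order, 1 panel per plate, with the plate rows A to H along the x axis and units above the array median on the y axis. Blue and orange points are replicates I and II, the dashed line is the rule of 1 unit and black squares mark the 95 upper probes, which form 20 separate blocks with lower stretches between them.

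In all, 5 members ranked among the 100 highest probes of the array by mean. PD03F04 was the highest, at 4.10 and 3.69 units (mean 3.90 ± 0.29, SD, n = 2), which placed it at rank 4 of 21740. PD02D12 followed with 3.84 and 3.17 units (SD 0.47, n = 2), and PD03E06 with 3.63 and 3.20 (SD 0.30, n = 2). All 3 had a limma adjusted p of 0.000313. PD03C10 (3.59 and 3.15 units) and PD01H04 (3.64 and 2.96 units) completed the list. The next members by mean were PD01A08, PD02E01, PD03C09, PD01H12 and PD03E07, with means from 3.05 to 3.15 units. The 10 highest probes came from 7 different runs on 3 plates, and none lay on plate PD 04.

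At the lower end, PD02B02 had the lowest mean, at -1.15 and -0.20 units (mean -0.68 ± 0.67, SD, n = 2). It did not pass limma's test (adjusted p = 0.0870), and its replicates differed by 0.95 units. PD03A05 (-0.80 and -0.45 units, limma adjusted p = 0.0454), PD01B04 (-0.68 and -0.53, limma adjusted p = 0.0429) and PD04A01 (-0.66 and -0.51, limma adjusted p = 0.0463) passed and are the 3 members called below. PD04C01, at -0.83 and -0.41 units, did not (limma adjusted p = 0.0519).

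The rule of 1 unit cut through a continuum at its margin. Just inside lay PD03E09 (1.45 and 1.01 units), PD02B04 (1.85 and 1.01) and PD01F08 (1.25 and 1.03). Just outside lay PD03E08 (1.54 and 0.997 units), PD01D08 (0.994 and 1.06) and PD02A03 (1.71 and 0.986). All 6 were called above the median by limma, with adjusted p between 0.00358 and 0.00501.

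Upper probes were next taken in the order of their names, plate by plate and along the rows, to see whether marked probes lie together. Whether this is an order in the genome is not stated. The 95 upper probes formed 20 runs, with 4 probes in the median run and 4.75 on average. There were 3 single probes, 8 runs of 2 to 4 probes, 6 runs of 5 to 9 and 3 of 10 or more. Of the 95, 69 (72.6%) lay in runs of at least 5, against 59.5% of the upper probes on TA and TB plates. Fewer probes were upper on those plates (17.1% against 30.1%), which by itself leaves less room for runs. The next well was upper after 75 of the 95 upper PD probes (78.9%), and after 20 of the 219 others that have a next well (9.13%). With the same wells read down the plate columns, the share fell to 29.5% and the runs numbered 67, so the likeness of neighbours followed the rows of the names.

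The longest run covered 12 probes from PD02B04 to PD02C03, with means of 2.54 and 1.91 units. It rose from 1.85 and 1.01 units at PD02B04 over 2.16 and 1.55 at PD02B05 to 3.27 and 2.5 at PD02B06. PD02B07 (2.58 and 2.41), PD02B08 (3.32 and 2.61, the peak) and PD02B09 (3.17 and 2.52) formed its crest. PD02B10 (2.61 and 1.67) and PD02B11 (1.84 and 1.46) formed a dip, and a second shelf followed. Its members were PD02B12 (2.51 and 1.80), PD02C01 (2.28 and 1.75), PD02C02 (2.52 and 1.79) and PD02C03 (2.42 and 1.83). The run then ended in a single well, with PD02C04 at 0.81 and 0.64 units.

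Both runs of 10 probes began in the last well of row E and ended in well 9 of row F, on plates PD 02 and PD 03. The run from PD02E12 to PD02F09 averaged 2.48 and 2.01 units and peaked at PD02F04 (3.22 and 2.48). The run from PD03E12 to PD03F09 averaged 2.82 and 2.33 units and held the highest PD probe, PD03F04. The correspondence of wells is given as a fact of the names, and its reason was not tested. The run of 9 from PD04A02 to PD04A10 averaged 2.49 and 1.83 units, with its peak at PD04A06 (3.20 and 2.75). The run of 7 from PD01A04 to PD01A10 averaged 3.25 and 2.34 units and had the highest replicate I mean of the 9 runs with 5 or more probes. In all 13 runs of 3 or more probes the highest probe lay inside the run and not at an end. Runs are cut where values drop below the rule, which by construction favours low ends.

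Shorter and longer runs differed in height by less than the spread between runs. Run means averaged 2.70 ± 0.60 and 2.14 ± 0.57 units over the 8 runs of 2 to 4 probes (SD over runs). Over the 9 runs of 5 or more they were 2.62 ± 0.39 and 1.99 ± 0.33. The pair PD03E06 and PD03E07 had the highest run mean of all, at 3.43 and 3.04 units. The 3 single probes differed among themselves. PD01E10 stood at 3.25 and 2.67 units next to PD01E09 at -0.27 and -0.50. PD01C08 stood at 2.00 and 1.63 units and both of its neighbours passed 1 unit in replicate I but not in replicate II. PD03E09 stood at 1.45 and 1.01 units and was separated from PD03E07 by PD03E08 alone, which missed the rule in replicate II only.

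Interruptions of a single well were rare. Between 2 upper neighbours lay 60 probes, of which 58 were upper themselves, and the others were PD03E08 and PD02A03, both just outside the rule. Of the 40 probes that border a run, counting a probe between a pair of runs once for each, 16 lay below 0.5 units in both replicates. A further 14 passed 1 unit in replicate I only, and 1 did so in replicate II only (PD02B03, 0.98 and 1.17 units).

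The 21 stretches without an upper probe had a median of 9 probes. The longest, 45 probes from PD02G10 to PD03C07, had medians of -0.16 and 0.09 units and held the whole of rows A and B of plate PD 03. It is counted across the empty well PD03C05. The second, 25 probes from PD01C09 to PD01E09, was not flat. It had medians of 0.21 and 0.10 units, and 7 of its probes passed 1 unit in a single replicate. The series closed with 19 low probes from PD04A11 to PD04C05 (medians -0.30 and -0.14 units), of which the highest was PD04B08 at 0.62 and 0.37.

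The series was then set beside the TA and TB plates, taken as every set of 4 consecutive plate numbers (193 sets, 96 of TA and 97 of TB). Sets that share plates are not independent, so ranks are given as a description, with no p, and nothing here was tested as particular to the PD series. Its share of upper probes was reached by 14 of the 193 sets (7.25%), whose median share was 15.9% and highest 45.6%. By replicate I alone 13.5% of the sets reached the PD share, and by replicate II alone 7.77%. Of 49 sets that do not overlap, 2 reached it. Each PD plate alone also ranked in the upper part: 36.5% of plate PD 02 was upper, which 15 of 199 TA and TB plates reached, and 24.2% of plate PD 03, which 39 reached. The shares were 29.2% on plate PD 01 and 31.0% on plate PD 04. Leaving out 1 plate at a time gave 27.3% to 32.6%.

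The height of the upper PD probes was also in the upper part of the sets. The mean of the upper probes in replicate II was reached by 8 of the 188 sets with any upper probe, and that in replicate I by 15. Of the upper PD probes, 72.6% had a mean of 2 units or more, which 6 of the 188 sets reached (median 49.5%). The longest run (12) and the share of followers (78.9%) were reached by 75 of 193 and 27 of 188 sets. The number of runs per 100 probes was 6.33, reached by 24 of 193 sets, and 173 had a stretch without upper probes of 45 or more. Among the 10 sets closest to the PD series in upper share (27.3 to 31.5%), the mean run ranged from 3.42 to 7.56 probes. Their longest run ranged from 9 to 46 probes. Of these 10 sets, 4 reached the PD mean run of 4.75 and 5 its share of followers (median 78.6%). A longest run of 12 was reached by 9 of them, and a stretch of 45 by 7.

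Changes from well to well were sharper in the PD series than in nearly all of these sets. A large step is a change of at least 1.5 units in the same direction in both replicates between neighbouring wells, a size set after the values were seen. There were 17 among 314 pairs of neighbouring PD probes (5.41%). None of the 193 TA and TB sets reached that share; their median was 1.04% and the highest was 4.70%, in 3 sets that all contain plate TA 68. Among the 10 sets closest in upper share the highest was 1.57%. With a step of 1 unit, 1 set reached the PD share. By replicate I alone 3 sets did and by replicate II alone 2. With the TA and TB plates reduced to the wells that the PD series fills, 2 sets did.

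**Figure D2:**
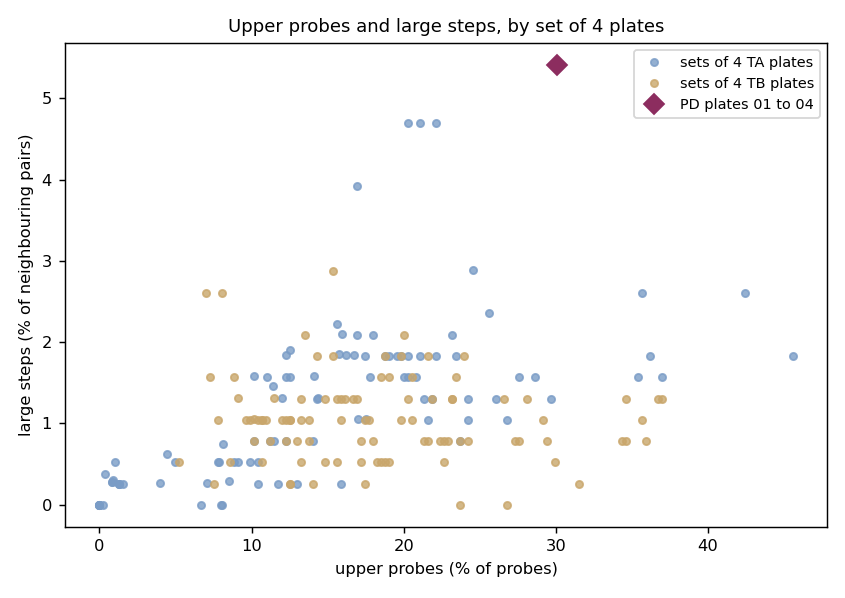
Share of upper probes (x axis, % of probes) against share of large steps (y axis, % of neighbouring pairs) for the PD series (diamond) and 193 overlapping sets of 4 consecutive TA or TB plates (points). The PD series lies at 30.1% and 5.41%, above every set on the y axis.

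Of the 17 large steps, 7 went up and 10 went down. Those named here were picked for their size or for the run that they border. Ranked by the smaller of its sizes in the replicates, the largest was the rise from PD01E09 (-0.27 and -0.50 units) to PD01E10 (3.25 and 2.67), a step of 3.52 and 3.16 units within 1 well. The largest fall by the same measure was from PD01A10 (3.11 and 2.52 units) to PD01A11 (0.47 and -0.01). The runs of 10 on plate PD 02 and of 9 on plate PD 04 were bounded by large steps on both sides. So were shorter runs, namely PD03C08 to PD03C11, PD03E06 to PD03E07, PD03G08 to PD03G09 and the single probe PD01E10. The run from PD02E12 to PD02F09 was entered by a rise of 2.91 and 2.17 units, and on leaving it the value fell by 3.48 and 2.04. The run from PD04A02 to PD04A10 was entered by a rise of 2.82 and 2.09 units, and on leaving it the value fell by 2.40 and 1.70. In contrast, the run from PD01A04 to PD01A10 was approached over 3 wells, with PD01A01 at 0.63 and 0.32 units, PD01A02 at 1.33 and 0.40 and PD01A03 at 2.15 and 0.88. None of the large steps fell between the last well of a row and the first well of the next (0 of 26 pairs, against 17 of 288 within rows). This count rests on the size of 1.5 units, as the rise from PD03E12 to PD03F01 was 1.75 and 1.46 units. Falls of 1.83 and 1.30 units (PD01F12 to PD01G01) and of 1.32 and 1.06 units (PD01D12 to PD01E01) also crossed row ends. Neighbouring wells, each read in a different replicate, correlated at 0.817 across these 26 row ends and at 0.737 over the 288 pairs within rows.

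Likeness also faded over fewer wells than on most other plates. The correlation of a PD probe in 1 replicate with a probe further along in the other replicate was 0.744 at 1 well, where 118 of 193 sets had as high a value or higher (median 0.764). It was 0.508 at 2 wells and 0.295 at 3 wells, against medians of 0.590 and 0.458. At 5 wells it was 0.004, and 191 of 193 sets were at or above that (median 0.293). It was below 0 from 6 to 9 wells, rose to 0.054 at 12 wells, fell below 0 again from 14 to 19 wells and stood at 0.060 at 24 wells. At 12 wells 123 of the sets were at or above the PD value, and at 24 wells 74. These correlations run across probes of the same 2 replicates and carry no p.

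**Figure D3:**
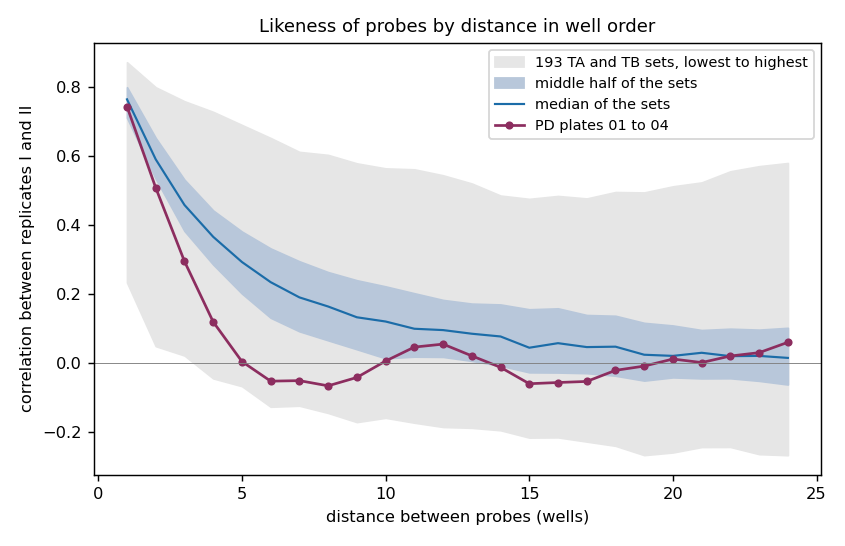
Correlation across probes between replicate I at a probe and replicate II at a probe a number of wells away, and the reverse, averaged (y axis), against that distance in wells (x axis). The PD series (line with points) starts near the median of the 193 TA and TB sets, falls to 0.004 at 5 wells and stays between -0.067 and 0.060 from there on.

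Upper PD probes were unevenly spread over the 12 well numbers of a row. In well 9, 13 of 26 probes were upper, and in well 8, 12 of 26 (46.2%), but only 5 of 27 (18.5%) in well 1 and 5 of 26 (19.2%) in well 11. Wells 6 to 10 together held 39.2% and wells 1 to 5 held 24.6%. Pooled over all TA and TB plates, which hold far more probes, the shares of these groups were 17.2% and 16.9%. Such a pool does not show how uneven a single set of plates is. The SD of the upper share over the 12 well numbers was 9.94 percentage points for the PD series. The median set had 4.58 and the highest 8.88, so none of the 193 sets reached it. Most of these sets had a lower upper share than the PD series. Among the 10 sets closest in upper share the SD ran from 2.09 to 7.94. A set has up to 32 probes per well number and the PD series 26 or 27. With TA and TB plates reduced to the wells of the PD series, 1 of 193 sets reached it. The median value per well number, in place of the upper share, had an SD of 0.44 units against a highest of 0.34 over the sets.

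The pattern was not the same on each plate. In wells 6 to 10, 18 of 40 probes were upper on plate PD 01, 12 of 40 on plate PD 02, 16 of 40 on plate PD 03 and 5 of 10 on plate PD 04. In wells 1 to 5 the counts were 6 of 40, 18 of 40, 5 of 39 and 4 of 15. Plate PD 02 thus ran the other way from the 3 other plates. The upper probes lie in 20 runs, so their wells are not independent, and the part of the plate layout in this pattern was not tested. By plate row, the share was highest in row F (23 of 36, 63.9%) and lowest in row G (4 of 36, 11.1%). In row F, plates PD 01, PD 02 and PD 03 held 5, 9 and 9 upper probes, each from a single run. Of the 27 filled or partly filled rows, 8 held no upper probe and 7 held 6 or more. No such row counts are given for TA and TB plates, so these describe the PD series alone.

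**Figure D4:**
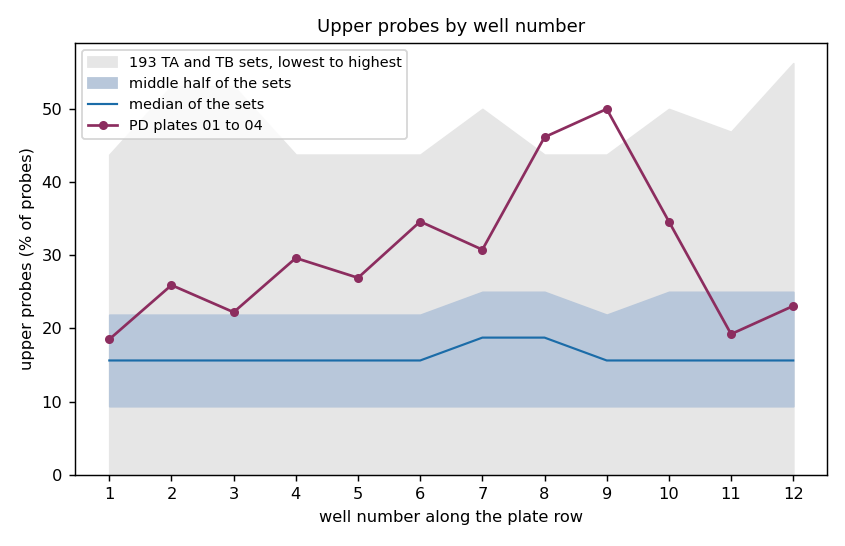
Share of upper probes (y axis, %) by well number along the plate row (x axis) for the PD series (line with points, 26 or 27 probes per well number) and for 193 sets of 4 TA or TB plates (bands and median line). The PD share peaks in well 9 (13 of 26) and is lowest at 18.5% in well 1, whereas the median of the sets is nearly flat. Single sets ran from 0 to 43.75% or more in each well number.

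Replicate agreement differed between the plates. Outside the upper group, probes of plate PD 02 were higher in replicate II than in replicate I, with a median difference of 0.40 units over 61 probes. Their median was -0.19 and 0.25 units, and replicate II was the higher for 49 of the 61. The same difference was -0.12 units on plate PD 01 (68 probes), -0.05 on plate PD 03 (72 probes) and 0.14 on plate PD 04 (20 probes). Over the 199 TA and TB plates it had a median of -0.05 and a highest value of 0.24, so none reached that of plate PD 02. Over all 96 probes of plate PD 02, upper ones included, the median difference was 0.072 units, and 9 of the 199 plates reached it. The upper probes of plate PD 02 did not stand apart in this way, with a median difference of -0.61 units against -0.62 for the median TA or TB plate.

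The 3 PD probes with the largest excess of replicate II all lay on plate PD 02. They were PD02F10 (-0.84 and 0.19 units), PD02C12 (-0.14 and 0.86) and PD02B02 (-1.15 and -0.20). The 3 with the largest excess of replicate I all lay on plate PD 01, namely PD01A03 (2.15 and 0.88 units), PD01A07 (3.47 and 2.25) and PD01B10 (2.66 and 1.53). With plate PD 02 left out, 60 of the remaining 220 (27.3%) were upper. The cause of the difference on plate PD 02 was not tested.

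**Figure D5:**
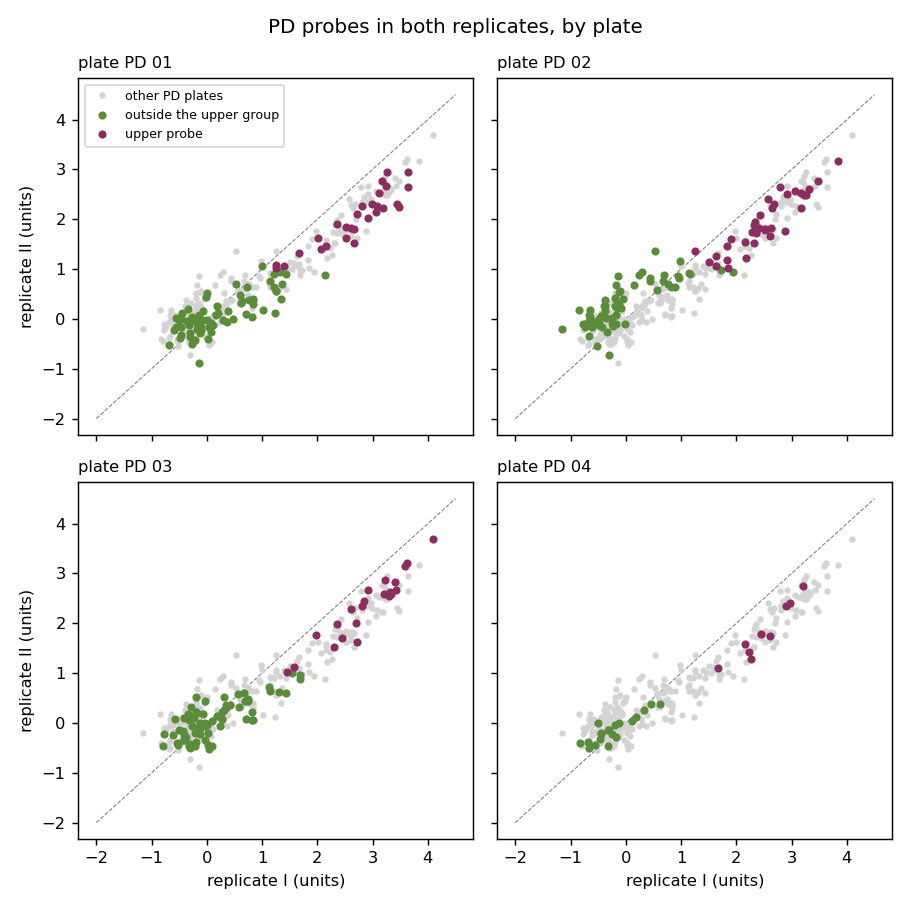
Replicate I (x axis) against replicate II (y axis) in units above the array median, 1 panel per PD plate, with upper probes in purple, other probes of the plate in green and the remaining PD probes in grey; the dashed line marks equal values. On plate PD 02, 49 of the 61 green points lie above the line, with a median difference of 0.40 units, while upper probes lie below it on all 4 plates, except 1 probe of plate PD 02.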

How the data were processed

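The deposited table holds a score per probe and array that the authors computed from dye-exchanged arrays of immunoprecipitate and input. How they normalized or centred it, its log base and its direction: not given in the sources used here. As the 2 arrays of each dye exchange hold the same value for every PD probe (largest difference 0), their mean was taken as 1 replicate. The median over 21740 probes was then subtracted. The test was limma (lmFit and eBayes, intercept only, two-sided, Benjamini-Hochberg at 0.05 over all 21740 probes), with 1 residual degree of freedom and variance borrowed across probes. Neighbours are consecutive wells along rows, and an empty well breaks a run of upper probes but not a stretch without them. Members, lists, rules and comparisons were chosen with earlier results of these data known. Named by rule were the 10 highest and 5 lowest members, the ends of the 5 longest runs, all probes of the longest, single upper probes, 3 on each side of 1 unit, the 3 largest replicate differences each way and the lowest probe between upper probes; others were chosen after their values were seen. Steps, well numbers and replicate differences were examined after the data were seen. The limma and run steps were tested on simulated data. Software was R 4.3.3, limma 3.58.1, Python 3.11.15, numpy 2.4.6, pandas 2.3.3, scipy 1.17.1 and matplotlib 3.10.9.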

Additional observations from a re-analysis of the deposited data

How the results depend on the processing

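Without centring, 43 PD probes were upper (13.6%), 81 were called above and 167 below by limma, the longest run was 5, followers made up 55.8% and 1.04% of the sets reached the PD share; the move follows from the construction. The sign turned left 0 probes. The upper share (30.1%) was 34.8% with mode centring, 41.1% at a rule of 0.5 units, 24.1% at 1.5 units and 31.0 to 37.3% with 1 replicate left out. The 3 probes called below became 0 with mode centring or at adjusted p under 0.01, 20 with equal spread, 25 after quantile normalization and 40 with a trended, robust prior. Followers (78.9%) were 77.3% with mode centring, 80.2% when centred without PD probes, 80.8% after quantile normalization, 69.7% at 1.5 units, 79.9% with limma calls, 77.6 to 78.8% with 1 replicate left out and 29.5% down the columns, where there were 67 runs, the longest of 4, and a longest stretch of 15; that stretch was 24 at 0.5 units. The rank correlation was 0.889. The sets that reached the PD share (7.25%) were 11.4% at 0.5 units, 3.11% at 1.5 units, 4.08% without overlap and 7.77 to 13.5% with 1 replicate left out. For large steps, 0 sets became 1 at 1 unit, 2 in the wells of the PD series and 2 to 3 with 1 replicate left out. For well numbers, 0 became 1 in the wells of the PD series. For the replicate difference of plate PD 02 outside the upper group, 0 plates became 9 when all probes of a plate were used. Thresholds act by construction. Reading down the columns changes which wells count as neighbours. For the other changes, the cause was not tested. Spot brightness was not analysed here, so dim PD probes are not told from bright ones. The limma calls have no value with 1 replicate left out, as no residual degree of freedom remains. With a single group, no paired analysis was possible because there is no second group to pair with.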
